A study of Homo sapiens with 4 samples.

Results

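MALAT1, 2 segments of NEAT1 and the paraspeckle proteins NONO, SFPQ and PSPC1 were followed in 143B cells, a human osteosarcoma line, after knockdown of CBX3. These 6 rows were taken by name from a count table of 37450 rows, selected on the measured difference between the same siCBX3 and siNC libraries, in which MALAT1 and the NEAT1 segments were much higher with siCBX3. That difference is therefore described without a test. All 6 were among the 20999 rows that passed a filter on low counts.

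The siCBX3 group held 2 libraries of cells transfected with siRNA against CBX3, labelled as CBX3 knockdown, and the siNC group held 2 libraries of cells given a non-targeting siRNA, labelled as wild type. Both groups came from the same line and were transfected with the same lipid reagent, and RNA was taken on day 2. CBX3 is the gene of HP1γ, which reads methylation on histone H3 and is a component of heterochromatin. The sources used here give neither the siRNA sequences nor how many were used, and nothing in the labels says that the libraries of a group came from separate cultures, so a p-value here covers the spread among the 4 libraries, which may be technical.

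MALAT1 and NEAT1 are long nuclear RNAs made from neighbouring genes on chromosome 11. MALAT1 gathers in nuclear speckles, bodies rich in splicing factors. NEAT1 is the scaffold of paraspeckles, which form beside the speckles, and exists as a short form with a poly(A) tail and a long form without one. The long form is the one that builds the body. The 3′ ends of MALAT1 and of long NEAT1 are cut by RNase P just before a tRNA-like element, and the new end is protected by a triple helix between U-rich stretches and an A-rich end. NONO, SFPQ and PSPC1 belong to the DBHS family, RNA-binding proteins that pair with each other and coat NEAT1. NONO and SFPQ are needed to keep long NEAT1 stable.

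The names NEAT1_1 and NEAT1_2 do not stand for the short and the long form. In the count table they are short blocks near the start of the gene. The long transcript and the spliced short transcript annotated for NEAT1 both contain them, except that an intron of the short one removes the last 9 bases of NEAT1_1. NEAT1_1 covers chr11:65423273-65423392 on the plus strand (GRCh38, 120 bases) and NEAT1_2 covers chr11:65423638-65423742 (105 bases), 245 bases further on. A companion block, NEAT1_3, is at chr11:65423960-65424118 (159 bases). All 3 lie in the first 1345 bases of the row named NEAT1, which covers chr11:65422774-65445540. Their sequences are shown because they define what was counted, with the block in capitals and 20 bases of NEAT1 on each side in lower case (GENCODE 29, transcript NEAT1-202, a single exon of 22743 bases).
NEAT1_1: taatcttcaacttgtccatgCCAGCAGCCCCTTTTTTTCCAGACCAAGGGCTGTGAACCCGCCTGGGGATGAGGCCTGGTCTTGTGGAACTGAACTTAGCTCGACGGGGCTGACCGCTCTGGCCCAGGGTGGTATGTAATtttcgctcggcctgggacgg
NEAT1_2: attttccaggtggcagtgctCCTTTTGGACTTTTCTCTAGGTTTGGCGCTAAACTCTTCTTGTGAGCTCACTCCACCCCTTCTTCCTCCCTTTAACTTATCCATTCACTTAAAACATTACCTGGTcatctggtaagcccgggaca

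The shorter transcripts annotated from the start of NEAT1 end at or before position 65426513 of chromosome 11. The poly(A) signal AATAAA begins 10 bases before that end, at chr11:65426503-65426508, and is in capitals in the stretch chr11:65426478-65426537. Long NEAT1 holds 8 copies of these letters. The blocks lie upstream of this signal, so a read in them fits a short form as well as the long form.
NEAT1 at the end of the short form: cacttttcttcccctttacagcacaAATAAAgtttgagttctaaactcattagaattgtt

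The last 60 bases of MALAT1 before its tRNA-like element (chr11:65506057-65506116) and the last 60 bases of NEAT1-202 (chr11:65445481-65445540) are shown because these ends replace the poly(A) tail. Capitals mark a stretch of 16 bases and the final 11 bases that the 2 RNAs share. Of the last 30 bases, 18 are A in MALAT1 and 15 are A in NEAT1.
MALAT1 end: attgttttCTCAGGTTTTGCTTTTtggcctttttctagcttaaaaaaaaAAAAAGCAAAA
NEAT1 long form end: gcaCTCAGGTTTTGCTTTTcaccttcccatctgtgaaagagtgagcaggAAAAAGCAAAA

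The tRNA-like element that follows in MALAT1 (chr11:65506117-65506173, 57 bases) is cut off as a small RNA, mascRNA. It stands here because the table has a row for it, described further on.
MALAT1 tRNA-like element: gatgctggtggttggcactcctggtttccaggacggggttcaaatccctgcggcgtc

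Total counts were 36509298 and 38717507 in the siCBX3 libraries and 37318382 and 40336907 in the siNC libraries. CBX3 itself had 2020 and 2163 counts with siCBX3, against 20311 and 21384 with siNC, and fell 9.15-fold (log2 fold change -3.19, SE 0.08, adjusted p 2.73e-20, edgeR quasi-likelihood test with Benjamini-Hochberg adjustment). Across all rows tested, 24.4% were called higher and 24% lower with siCBX3 (adjusted p under 0.05), 48.4% in all, and the median log2 fold change was -0.01. Bulk libraries cannot tell fewer cells of a kind from less RNA per cell. Of 9 osteosarcoma and osteoblast markers, 7 could be tested and 5 rose, and their summed level was 3307 and 3217 CPM with siCBX3, against 1047 and 1080 CPM with siNC. SPARC and VIM carried most of that sum. Leukocyte, epithelial and endothelial markers each summed to at most 16.8 CPM in any library, and no marker was at 0 in all libraries. The part of these markers in the results on MALAT1 and NEAT1 was not tested.

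Of the 6 members, MALAT1, NEAT1_1, NEAT1_2 and NONO had higher mean levels with siCBX3, and SFPQ and PSPC1 had lower ones. Since the same contrast chose them, no test is given for them and nothing is read from these directions beside the 24.4% higher, 24% lower and 48.4% changed of all rows. The 3 non-coding rows were higher by several fold, and the 3 protein rows differed by far less and in both directions.

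MALAT1 (chr11:65497762-65506516, plus strand, 8755 bases) had 51852 and 61386 counts with siCBX3, against 10946 and 15185 counts with siNC. As TMM-scaled CPM, which is the count scaled to library size, this was 1471 and 1620 with siCBX3, against 290.5 and 360 with siNC. The groups lay far apart, and the gap between them was many times the gap between libraries of a group. The mean level was 1545 ± 105 CPM with siCBX3 and 325 ± 49.5 CPM with siNC (SD, n = 2 each), 4.75-fold higher with siCBX3. The fitted log2 fold change was 2.25 (SE 0.09), and 267 of the 20999 rows had a larger one.

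By length, MALAT1 was at 162 and 181 RPKM with siCBX3, against 33.5 and 43.0 RPKM with siNC. RPKM, as deposited, is the read count divided by the row's length and by the library's total. By mean RPKM it ranked 232nd of 20999 rows with siCBX3 and 1224th with siNC. These ranks hold for what the mRNA libraries recovered, and how much RNA without a poly(A) tail they recovered was not measured. It took 0.142% and 0.159% of all counts in the siCBX3 libraries, against 0.0293% and 0.0376% in the siNC libraries.

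NEAT1_1 had 1068 and 1213 counts with siCBX3, against 368 and 468 counts with siNC. These were 30.3 and 32.0 CPM with siCBX3, against 9.77 and 11.1 CPM with siNC. Both siCBX3 libraries were above both siNC libraries, with little spread inside a group. The mean was 31.2 ± 1.21 CPM with siCBX3 and 10.4 ± 0.949 CPM with siNC (SD, n = 2 each), 2.98-fold higher with siCBX3, and the log2 fold change was 1.58 (SE 0.10).

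NEAT1_2 had the fewest counts of the 6, with 383 and 429 with siCBX3, against 91 and 172 with siNC. These were 10.9 and 11.3 CPM with siCBX3, against 2.42 and 4.08 CPM with siNC. The siCBX3 libraries were close together, while the siNC libraries were not. The 95% Poisson intervals of the siNC counts, 73.3 to 112 for replicate 1 and 147 to 200 for replicate 2, do not overlap, so that gap is larger than counting error, which is all these intervals cover. The mean was 11.1 ± 0.321 CPM with siCBX3 and 3.25 ± 1.18 CPM with siNC (SD, n = 2 each), 3.41-fold higher with siCBX3. The log2 fold change was 1.76 (SE 0.17). It was 1.44 without siNC replicate 1 and 2.20 without siNC replicate 2, so the size of this difference depends on which siNC library is used. In all 12 alternatives tried, the log2 fold changes of MALAT1 (2.10 to 2.41) and NEAT1_1 (1.49 to 1.67) stayed closer to their main values.

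**Figure D1:**
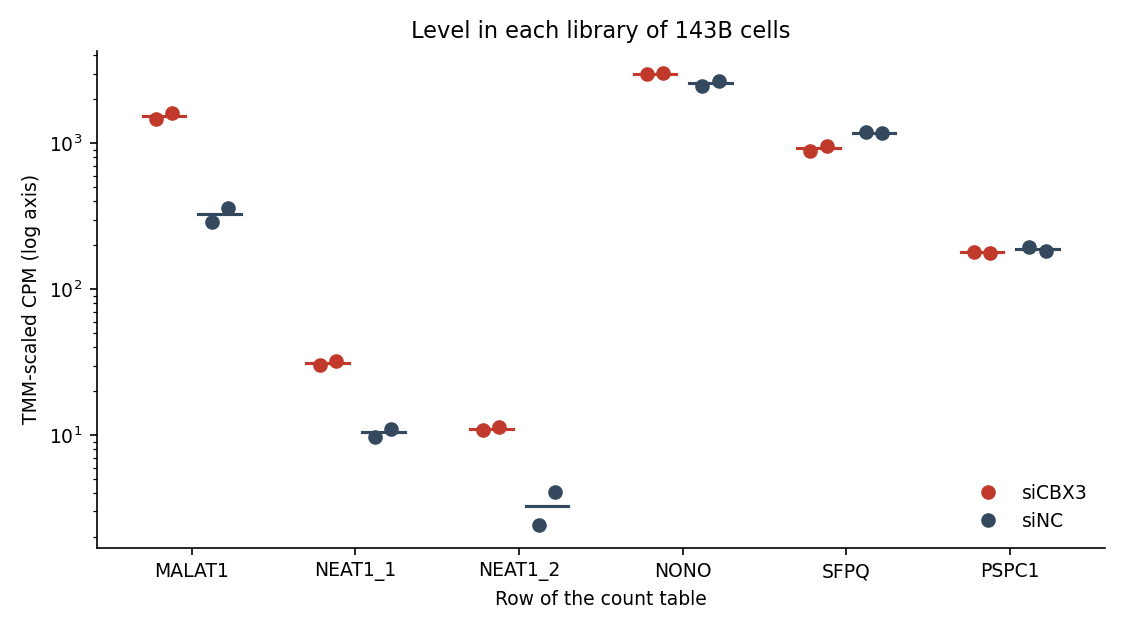
TMM-scaled CPM on a log axis for the 6 rows in each of the 4 libraries, siCBX3 left and siNC right; points are libraries and lines are group means. MALAT1 stands at 1471 and 1620 CPM with siCBX3, against 290.5 and 360 CPM with siNC, and both NEAT1 segments show the same order, while NONO, SFPQ and PSPC1 are close between groups.

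The row for the whole of NEAT1 contains every base of both segments, and their reads are part of what it can count, so it is no independent measure. It was chosen for that reason, with its values known. NEAT1 had 26486 and 27685 counts with siCBX3, against 10260 and 14244 counts with siNC. The level was 751 and 730 CPM with siCBX3, against 272 and 338 CPM with siNC, with no overlap between the groups. The log2 fold change of the whole row was 1.28 (SE 0.09), and that of NEAT1_3 was 1.42 (SE 0.09). The point estimates of the 3 blocks, 1.58, 1.76 and 1.42, were all above that of the row that holds them. NEAT1_1 and NEAT1_2 were chosen for their rise in these libraries, so nothing is read from that order.

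The 3 blocks make up 1.69% of the NEAT1 row's length. Their counts came to 14.2% and 14.3% of the NEAT1 count with siCBX3, against 12.5% and 11.9% with siNC. The share was higher in both siCBX3 libraries than in both siNC libraries, and this difference has no test of its own. It includes NEAT1_1 and NEAT1_2, which were chosen for their rise. By length the blocks stood far above the row: NEAT1_1 was at 244 and 261 RPKM with siCBX3, against 82.2 and 96.7 RPKM with siNC. NEAT1_2 was at 99.9 and 106 RPKM with siCBX3, against 23.2 and 40.6 RPKM with siNC. The NEAT1 row was at 31.9 and 31.4 RPKM with siCBX3, against 12.1 and 15.5 RPKM with siNC. A read that reaches only partly into so short a row may count in full for it, which raises its RPKM, and how such reads were assigned is not given in the sources used here. A short form can also add reads to the blocks, while the RPKM of the NEAT1 row divides by all 22767 bases. What part either has in the gap was not tested.

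**Figure D2:**
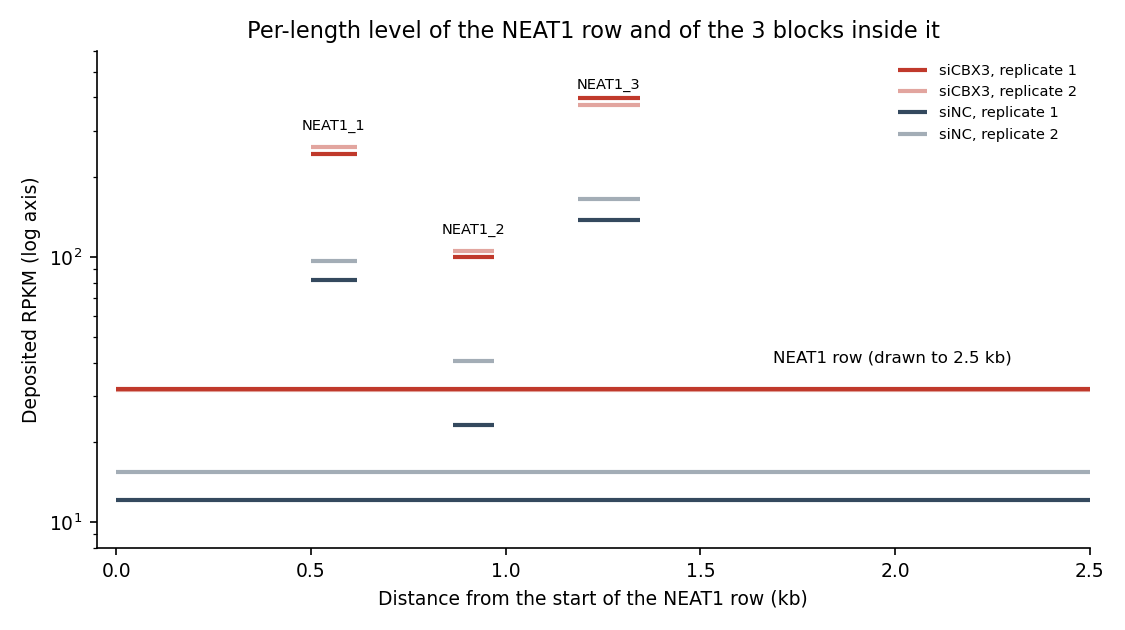
Deposited RPKM on a log axis against distance in kilobases from the start of the NEAT1 row, for that row and the 3 blocks inside it; each line is 1 library and spans the row's own position. NEAT1_1 is at 244 and 261 RPKM with siCBX3, against 82.2 and 96.7 RPKM with siNC; the NEAT1 row runs past the right edge at 31.9 and 31.4 RPKM with siCBX3, against 12.1 and 15.5 RPKM with siNC.

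MALAT1 and NEAT1 did not keep their proportion. The ratio of MALAT1 to NEAT1 in RPKM was 5.09 and 5.77 with siCBX3, against 2.77 and 2.77 with siNC. The siNC libraries gave almost the same ratio although replicate 2 was higher than replicate 1 in both RNAs. The ratio describes these libraries and was not tested.

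Rows that share bases with MALAT1 show what its count can hold, and were looked at for that reason with their values known. AP000769.1, on the opposite strand, lies wholly inside MALAT1 (1589 bases). It had 3181 and 3675 counts with siCBX3, against 742 and 986 counts with siNC, and its log2 fold change was 2.12 (SE 0.09). In each library it had between 5.99% and 6.78% of the MALAT1 count. Whether the counting used strand is not given in the sources used here, so reads of AP000769.1 and of MALAT1 cannot be told apart. AP000769.7, also antisense and inside MALAT1, had 0 and 0 counts with siCBX3, against 2 and 1 counts with siNC.

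The row for the small RNAs cut from the ends of MALAT1 and long NEAT1 (mascRNA and menRNA, counted together over 115 bases, 57 of them inside MALAT1) had few counts. There were 16 and 24 with siCBX3, against 14 and 21 with siNC, and these ranges overlap. The log2 fold change of 0.32 (SE 0.47) was not called. The libraries were made with an mRNA kit, per the labels. How much RNA this small, or without a poly(A) tail, they recovered was not measured.

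Other RNAs without a poly(A) tail were set beside MALAT1. Of 14 such RNAs in the list, 8 could be tested. Of these, 1 was called higher and 1 lower, beside 24.4% higher and 24% lower of all rows. With so few tested, nothing is read from these counts. Both called RNAs are named here after their values were seen. RN7SK, the RNA that holds back the elongation factor P-TEFb, had 41.9 and 65.7 CPM with siCBX3, against 39.6 and 38.5 CPM with siNC (log2 fold change 0.46, edgeR adjusted p 0.00336). This call rests on siCBX3 replicate 2: without it the log2 fold change was 0.10 (edgeR adjusted p 0.537), and DESeq2 did not call it (adjusted p 0.257). Over the 12 alternatives its adjusted p ran from 1.37e-09 to 0.537. RPPH1, the RNA subunit of RNase P, had 21.2 and 26.2 CPM with siCBX3, against 33.0 and 25.7 CPM with siNC, so its groups overlapped (-0.31, edgeR adjusted p 0.0283). It was not called without siCBX3 replicate 1 (-0.16, edgeR adjusted p 0.317), without siNC replicate 1 (-0.11, edgeR adjusted p 0.430) or by DESeq2 (adjusted p 0.0825), and its adjusted p ran from 8.79e-05 to 0.430 over the 12 alternatives. The summed level of the 14 was 174 and 236 CPM with siCBX3, against 224 and 189 CPM with siNC, so the groups overlapped.

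NONO (chrX:71283192-71301168, plus strand) had 104741 and 114348 counts with siCBX3, against 93808 and 113101 counts with siNC. After scaling this was 2971 and 3017 CPM with siCBX3, against 2490 and 2685 CPM with siNC. The groups did not overlap after scaling, though their raw counts did. The mean was 2994 ± 32.3 CPM with siCBX3 and 2587 ± 138 CPM with siNC (SD, n = 2 each), 1.16-fold higher with siCBX3, with a log2 fold change of 0.21 (SE 0.07). Scaling by library totals lowered it to 0.13.

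SFPQ (chr1:35176378-35193148, minus strand), the usual partner of NONO, was lower with siCBX3. It had 31303 and 36365 counts with siCBX3, against 44859 and 49197 counts with siNC. This was 888 and 959 CPM with siCBX3, against 1191 and 1168 CPM with siNC, again with no overlap. The mean was 924 ± 50.5 CPM with siCBX3 and 1179 ± 16.1 CPM with siNC (SD, n = 2 each), 1.28-fold lower with siCBX3, with a log2 fold change of -0.35 (SE 0.07).

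PSPC1 (chr13:19674752-19783019, minus strand) had 6362 and 6732 counts with siCBX3, against 7372 and 7722 counts with siNC. After scaling this was 180.5 and 178 CPM with siCBX3, against 196 and 183 CPM with siNC. The siCBX3 values lay just under the lower siNC value. The log2 fold change was -0.08 (SE 0.07), about as large as its own error. PSPC1 shares 36 bases with RP11-523H24.3 on the opposite strand, and NONO and SFPQ share none with another row.

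Among the DBHS genes, then, NONO was higher and SFPQ lower in the same libraries. Their ratio in RPKM was 4.70 and 4.41 with siCBX3, against 2.93 and 3.23 with siNC. NONO to PSPC1 was 14.99 and 15.46 with siCBX3, against 11.6 and 13.3 with siNC. SFPQ to PSPC1 was 3.19 and 3.50 with siCBX3, against 3.95 and 4.13 with siNC. The 3 ratios are built from the same 3 genes, so they are not separate observations. They describe these libraries and were not tested.

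Set in order by mean RPKM, the siCBX3 libraries had NONO at 550 ± 11.3, NEAT1_1 at 252 ± 12.2, MALAT1 at 172 ± 13.3, SFPQ at 121 ± 7.79, NEAT1_2 at 103 ± 3.97 and PSPC1 at 36.1 ± 0.0561 RPKM (SD, n = 2). No neighbours in that order overlapped. The siNC libraries had NONO at 502 ± 38.8, SFPQ at 163 ± 1.67, NEAT1_1 at 89.4 ± 10.3, PSPC1 at 40.4 ± 0.896, MALAT1 at 38.3 ± 6.71 and NEAT1_2 at 31.9 ± 12.3 RPKM. There PSPC1, MALAT1 and NEAT1_2 overlapped and have no clear order. In these mRNA libraries MALAT1 was thus above SFPQ by length with siCBX3 and far below it with siNC. NEAT1_1 and NEAT1_2 stand here as short blocks, whose RPKM may be raised by reads that reach only partly into them. The whole NEAT1 row was at 31.6 RPKM with siCBX3 and 13.8 RPKM with siNC, below every row in either order. Its RPKM divides by all 22767 bases, while reads of a short form can fall only near its start. Its place in the order is therefore not a measure of how much NEAT1 there was.

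Other paraspeckle proteins were more often lower than higher. Earlier results of these data were known when this list and those of speckle proteins, decay factors and long non-coding RNAs were chosen. Of 35 in the list 34 were tested, with 6 higher and 16 lower and a median log2 fold change of -0.11, beside 24.4% higher and 24% lower and a median of -0.01 over all rows. Fewer of them were called lower when either siCBX3 library was left out, and their lower share then came closer to that of all rows. RUNX3, a transcription factor, rose most clearly, with 38.3 and 37.5 CPM with siCBX3, against 9.40 and 9.04 CPM with siNC (log2 fold change 2.04, SE 0.10, edgeR adjusted p 1.81e-14). The cold-inducible RNA-binding protein RBM3 rose (0.70, SE 0.08, edgeR adjusted p 9.97e-08), as did RBM7, a subunit of the NEXT complex that hands nuclear RNA to the exosome (0.81, SE 0.11, edgeR adjusted p 8.69e-07). RBM14, a protein needed for paraspeckle assembly, fell to 14.9 and 13.4 CPM with siCBX3, against 25.03 and 23.17 CPM with siNC (-0.77, SE 0.10, edgeR adjusted p 1.10e-06).

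Nuclear speckle proteins, the neighbours of MALAT1 in the nucleus, showed 3 higher and 13 lower of 28 tested (10.7% and 46.4%), at a median log2 fold change of -0.14 and beside 24.4% higher and 24% lower of all rows. Scaling by library totals gave 1 higher and 16 lower, beside 4243 higher and 5917 lower of all rows. Upper-quartile scaling gave 1 and 14, beside 4657 and 5626 of all rows. Fewer were called either way when either siCBX3 library was left out, and the lower share then came closer to that of all rows. BCLAF1 fell to 265 and 289 CPM with siCBX3, against 470 and 455 CPM with siNC (-0.74, SE 0.07, edgeR adjusted p 1.15e-08). The splicing coactivator SRRM1 (-0.66, edgeR adjusted p 1.22e-07) and EIF4A3, a core part of the exon junction complex (-0.63, edgeR adjusted p 1.51e-07), also fell. CLK4, a kinase of SR proteins, rose (0.50, edgeR adjusted p 5.70e-05).

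Factors of RNA 3′ end cutting and nuclear decay, the class to which RNase P and the exosome belong, showed 3 higher and 17 lower of 32 tested (9.38% and 53.1%), at a median log2 fold change of -0.27 and beside 24.4% higher and 24% lower of all rows. Scaling by library totals gave 1 higher and 20 lower, beside 4243 higher and 5917 lower of all rows. Fewer were called either way when either siCBX3 library was left out. The exosome subunit EXOSC7 fell to 60.7 and 57.8 CPM with siCBX3, against 107 and 108 CPM with siNC (-0.86, SE 0.08, edgeR adjusted p 1.46e-09). MPHOSPH6, an exosome-associated protein (-0.60, edgeR adjusted p 4.20e-07), and METTL16, an RNA methyltransferase that binds the MALAT1 triple helix (-0.67, edgeR adjusted p 4.55e-06), fell as well. ZFC3H1, a subunit of the PAXT complex that targets polyadenylated nuclear RNA for decay, rose (0.48, edgeR adjusted p 1.53e-05).

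**Figure D3:**
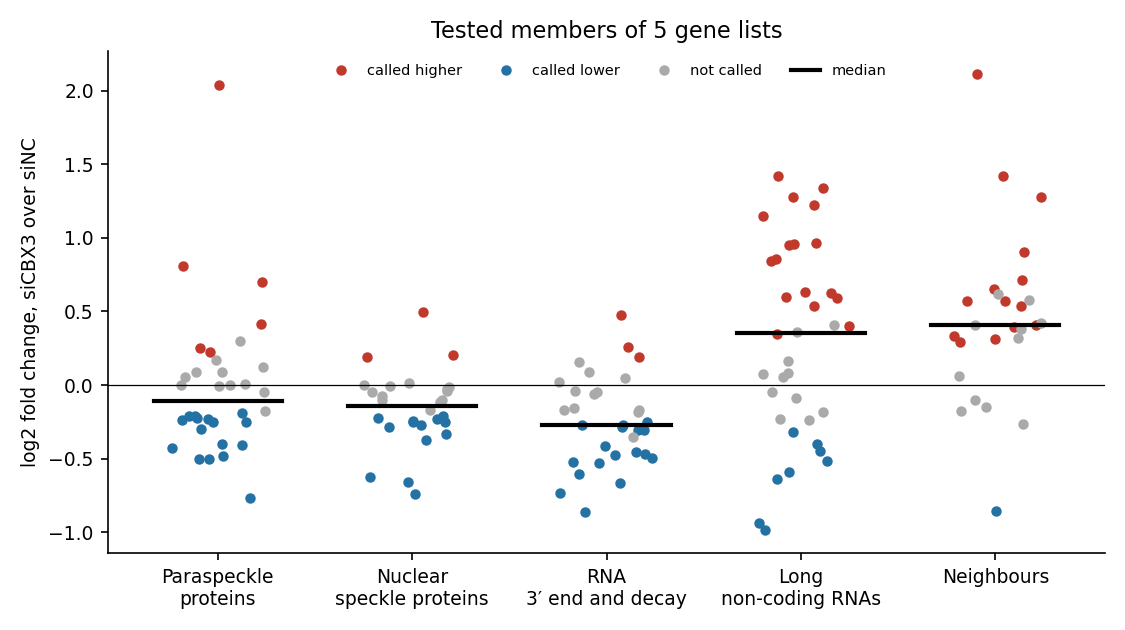
Log2 fold changes, siCBX3 over siNC, of the tested members of 5 gene lists; each point is a row, coloured by its edgeR call at adjusted p under 0.05, and bars are medians, with the point's place inside its column random. Medians run from -0.27 for RNA 3′ end and decay factors to 0.41 for the neighbours on chromosome 11, which here include the rows that share bases with MALAT1 or NEAT1.

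Among other long non-coding RNAs, once NEAT1 and NEAT1_3 were set aside, 15 of 34 tested were higher (44.1%, beside 24.4% of all rows) and 8 lower (23.5%, beside 24% of all rows). The median log2 fold change was 0.25. The whole list had 17 higher and 8 lower of 36 tested, and 5 lower without siCBX3 replicate 2. MIR22HG, the host RNA of miR-22, rose to 62.4 and 59.9 CPM with siCBX3, against 29.6 and 25.4 CPM with siNC (1.15, SE 0.09, edgeR adjusted p 1.20e-10). HOTAIRM1, transcribed from the HOXA cluster, rose to 30.4 and 28.6 CPM with siCBX3, against 12.5 and 12.7 CPM with siNC (1.23, SE 0.10, edgeR adjusted p 2.41e-10). The highest log2 fold change in the whole list, which leaves out the members, was 1.42 for NEAT1_3. MALAT1, at 2.25, was chosen for its rise in these libraries, so nothing is read from its place above the list.

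The surroundings of the 2 genes on chromosome 11 were examined for 250000 bases on either side. The MALAT1 row starts 52221 bases after the end of the NEAT1 row. Apart from rows that share bases with a member or with NEAT1, 22 neighbours were tested, of which 11 were higher and 1 lower, with a median log2 fold change of 0.40. Over all rows 24.4% were higher and 24% lower, and among these neighbours the shares were 50% and 4.55%. With those rows there were 26 tested, 14 higher and 1 lower, and 2 were lower without siNC replicate 2. Of 12 neighbours after MALAT1, 9 were called higher and the other 3 were not called, and of 9 before NEAT1, 2 were higher and 1 lower. The difference between the sides was not tested, and 1 neighbour between the genes was not called.

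LTBP3, which encodes a latent TGF-β binding protein, was the neighbour with the smallest p outside MALAT1 and NEAT1. It rose to 389.5 and 394 CPM with siCBX3, against 232 and 247 CPM with siNC (0.71, SE 0.07, edgeR adjusted p 1.55e-08). RELA, an NF-κB subunit, rose (0.54, edgeR adjusted p 4.20e-06), and PCNX3 had the largest log2 fold change of this group (0.90, edgeR adjusted p 1.94e-08). The 1 that fell was SLC25A45, a mitochondrial carrier (-0.86, edgeR adjusted p 0.00597). The call of SLC25A45 was lost without siCBX3 replicate 1 (-0.65, edgeR adjusted p 0.0729, the highest of its 12 alternatives, whose lowest was 0.00152). RELA, PCNX3 and SLC25A45 were chosen after their values were seen. Each of these changes was smaller than the log2 fold change of 2.25 at MALAT1. MALAT1 was chosen for its rise, so nothing is read from that order.

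**Figure D4:**
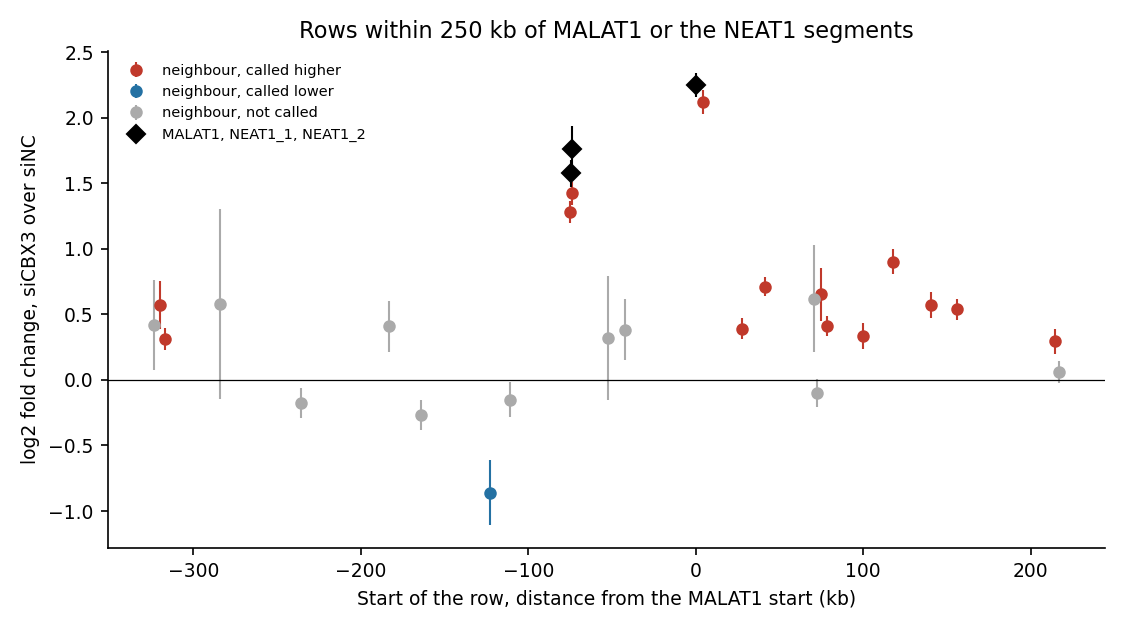
Log2 fold change, siCBX3 over siNC, with its SE as bars, of tested rows within 250000 bases of MALAT1 or the NEAT1 segments, against distance of the row's start from the MALAT1 start in kilobases; negative distances lie on the NEAT1 side. MALAT1 is the highest point at 2.25, next to AP000769.1 at 2.12, and the neighbours that share no bases with either RNA reach 0.90 at most.

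Profiles over the 4 libraries were compared by Euclidean distance between log2 CPM values, each centred on its own mean, among 5978 rows with a mean of at least 1000 counts. With 4 libraries in 2 groups such a distance mainly reads the difference between groups, and it is a description. Nearest to MALAT1 was COL5A2, a fibrillar collagen chain, with 704 and 686 CPM with siCBX3, against 126 and 157 CPM with siNC (distance 0.135). After it came AP000769.1, which shares the bases of MALAT1 (0.142), STC1, a secreted glycoprotein hormone (0.168), the angiogenic factor VEGFA (0.183) and the basement membrane collagen COL4A1 (0.204).

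Nearest to NEAT1_1 were IFI16, a nuclear DNA sensor (0.0407), ANXA1, a phospholipid-binding protein (0.0613), the lysine methyltransferase SETD7 (0.0706), the Rac exchange factor PREX1 (0.0729) and the Golgi matrix protein GOLGA2 (0.0762). IFI16 had 104 and 109 CPM with siCBX3, against 32.5 and 38.1 CPM with siNC. NEAT1_2, whose siNC libraries lay apart, had no row as near among these rows with a mean of at least 1000 counts. Its own counts ran from 91 to 429, so rows counted as sparsely as NEAT1_2 were not compared. Its closest were NDRG1, a stress-responsive gene (0.210), CCDC191 (0.331), the p53 target PMAIP1 (0.353), UNC13A, a synaptic vesicle priming protein (0.394), and the spermine oxidase SMOX (0.402). NDRG1 had 95.3 and 103 CPM with siCBX3, against 25.4 and 35.3 CPM with siNC, so that siNC replicate 2 was also its higher siNC library.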

How the data were processed

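Messenger RNA libraries of 143B cells, 2 per group on day 2, were made with a stranded mRNA kit, per the labels. The submitters' processing notes list GRCh38, STAR 2.5.3a, Trimmomatic 0.36, Subread 1.5.1 and featureCounts, with no role or setting for any of them. The authors deposited raw read counts and RPKM values for 37450 rows; the deposited RPKM equals counts scaled by length and library total (relative difference at most 3.79e-07).

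The counts were fitted with edgeR 4.0.16 (R 4.3.3), using filterByExpr (minimum count 10, minimum total 15), TMM scaling and a quasi-likelihood test with group as its term over 4 libraries. Calls are Benjamini-Hochberg adjusted p under 0.05 over 20999 rows. The spread used for each row is drawn largely from all rows (21.97 prior against 2 residual degrees of freedom). SE is the size of the fitted log2 difference divided by the square root of its F value. Counting intervals cover counting error only. DESeq2 1.42.0, limma 3.58.1 on log2(RPKM + 1) and log2(RPKM + 0.1), other scalings and filters, a replicate block and leaving out each library were alternatives. The edgeR step was tested on simulated counts, in which far fewer rows were changed than were called here. Replicates of a group differed by more than counting noise (chi-square per degree of freedom 5.53 in siCBX3 and 9.08 in siNC).

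The members and lists were chosen with earlier results of these data known. Named genes are the members, CBX3, the 4 smallest p-values of each of 5 lists and the 5 nearest profiles of each non-coding member. Outside this rule, rows that share bases with a member, and RN7SK, RPPH1, RELA, PCNX3 and SLC25A45, were chosen after their values were seen. Transcript sequences are from GENCODE 29, in which 4 of the 6 members matched by symbol.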

Additional observations from a re-analysis of the deposited data

How the results depend on the processing

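Under the 12 alternatives the log2 fold changes of the members kept their sign, from 2.10 to 2.41 for MALAT1, 1.49 to 1.67 for NEAT1_1, 1.44 to 2.20 for NEAT1_2, 0.13 to 0.27 for NONO, -0.43 to -0.30 for SFPQ and -0.16 to -0.03 for PSPC1. The 19 other rows taken for the lists, NEAT1 and CBX3 kept their direction and call in all 228 results of these alternatives. RN7SK, RPPH1, RELA, PCNX3 and SLC25A45, chosen after their values were seen, kept their direction in all 60 results and lost their call in 10: RN7SK with DESeq2, limma at either pseudocount and without siCBX3 replicate 2, RPPH1 with DESeq2, limma at either pseudocount, without siCBX3 replicate 1 and without siNC replicate 1, and SLC25A45 without siCBX3 replicate 1. Leaving out 1 library moved the lower calls to between 7 and 15 for paraspeckle proteins, 6 and 14 for nuclear speckle proteins and 5 and 8 for long non-coding RNAs, and the higher calls to between 1 and 4 for nuclear speckle proteins and 1 and 3 for decay factors. With 1 library left in a group, that library was assumed to vary like the other group. Fewer of all rows were also called each way in each of these fits. Nuclear speckle proteins had 1 higher call with library totals, upper-quartile scaling and limma at either pseudocount. Decay factors had 1 higher call with library totals and limma at either pseudocount. Limma also called fewer of all rows higher, 3584 at pseudocount 1 and 3606 at pseudocount 0.1, against 5132 in the main fit. Lower calls among neighbours were 2 with library totals, upper-quartile scaling, no filter, a minimum mean of 50 counts and the replicate block, and between 1 and 2 with a library left out. The cause was not tested. Setting aside the rows that share bases with a member, an alternative chosen after seeing the data, left 15 and 8 calls of long non-coding RNAs and 11 and 1 of neighbours. Same-numbered deviations correlated at 0.03 across features, which alone cannot show whether the replicate numbers pair the libraries. The mitochondrial share of all counts was 9.33% (siCBX3) and 9.80% (siNC) in replicate 1, against 7.96% and 8.04% in replicate 2. With the replicate block 5371 rows were higher and 5259 lower, against 5132 and 5041 without it. With 2 libraries per group, and 91 to 429 counts for NEAT1_2, small differences are not resolved.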
